A study of Mus musculus with 8 samples.

Results

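The genes of the collagen chains were described in single cells of 8 mouse tumors. They were taken as every gene symbol made of Col, a number, the letter a and a number, with a unique molecular identifier (UMI, one counted transcript) in at least 10 cells. Of 19024 gene rows, 38 symbols had this form and 36 passed, in 29496 deposited cells. The members nearest the limit were Col13a1, seen in 10 cells, and Col2a1, in 16, and the symbols that missed it were Col4a3, in 9 cells, and Col10a1, in 2. The matrices of all 8 libraries listed 27 of the 36 chains, and a chain not listed for a library was counted as 0 there.

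Collagens are triple helices of 3 chains, so a collagen type needs the genes of all its chains in one cell. Types I, III and V form the fibrils of connective tissue, type IV the network of basement membranes, and type VI beaded filaments around cells. In tumors, fibroblasts are known as the main source of fibrillar collagen, and endothelial and epithelial cells add basement membrane chains. By type, the 36 chains were 11 fibrillar, 6 of beaded filaments (type VI), 6 that attach to fibrils, 4 of basement membrane networks, 3 transmembrane, 2 multiplexins, 2 of short-chain networks (type VIII), 1 of anchoring fibrils (type VII) and Col28a1.

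MB49, a mouse urothelial cancer line, was grown under the skin of C57BL/6 hosts that all carried 1 copy of UbcreERT2, a tamoxifen-activated Cre recombinase expressed in all tissues, and that all received tamoxifen daily on 4 days. The hosts were Atg7+/+ in 4 libraries, called wild type (libraries 1, 2, 5 and 6), and Atg7f/f in 4 libraries, in which tamoxifen deletes Atg7, called deleted (libraries 3, 4, 7 and 8). Atg7 encodes an enzyme needed to form autophagosomes, and the injected line itself was not taken from these hosts. Cancer cells were injected 1 week after tamoxifen at 2 tumors per mouse, and tumors were taken 3 weeks later. The sources used here do not give the hosts' age.

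Which mouse each tumor came from is not labelled, so libraries may share an animal, in which case the p-values are smaller than they should be. Libraries held 4371773 to 59235799 UMIs, and any pair shared at most 46 cell barcodes. Cells were kept with at least 200 genes and at most 10% of UMIs from mitochondrial genes, which left 28577. Classes were named from marker genes in clusters made without any collagen chain gene. Malignant-like cells made up 40.4% to 48.9% of kept cells in wild-type libraries and 0.506% to 3.90% in deleted ones. These shares leave out 4 clusters that stayed unnamed, which held 9.23% to 39.3% of kept cells with wild-type hosts and 2.005% to 30.04% with deleted hosts. For 2 of them, led by genes such as Krt8, Mt3 and Dynap and unnamed for having under 3 detected markers, the shares were 4.665% to 29.8% and 0.290% to 7.59%, and clustering at a resolution of 0.5 named a cluster with the same leading genes malignant-like. With these clusters the malignant-like shares were 45.1% to 71.7% and 1.11% to 11.5%. Atg7 itself, in gated fibroblast-like cells (defined further on), stood at 0.444, 0.0410, 0.0849 and 0.0116 UMIs per 10000 for wild-type libraries 1, 2, 5 and 6, against 0.0531, 0.249, 0.0493 and 0.0603 for deleted libraries 3, 4, 7 and 8. The means were 0.145 ± 0.201 and 0.103 ± 0.09745 (SD, n = 4 each, two-sided exact permutation p = 0.8286), with overlap, and library 1 alone puts the wild-type mean above the other. UMIs from outside the deleted part would remain, so this level does not check the genotype.

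Fibroblast-like cells held most chains at their highest level. Levels are UMIs per 10000 UMIs of a cell, averaged over the cells of a library and then over the libraries that held 20 or more such cells. By the submitters' notes, reads come from the 5′ end of transcripts. Each UMI stands for 1 transcript, so levels of different genes compare transcript numbers and need no scaling to length. These class levels are a description, since the clusters were made from the same cells. In fibroblast-like cells, Col1a1 ran from 86.7 to 225, with a median of 127 over 8 libraries, and Col1a2, the partner chain of type I collagen, from 60.8 to 205, with a median of 106. Col3a1, the only chain of type III collagen, ran from 111 to 179, with a median of 144. These 3 chains stood far above the others in every library. The type V chains Col5a2 (15.7) and Col5a1 (12.4), which set fibril diameter, and the type VI chains Col6a2 (10.1), Col6a3 (9.98) and Col6a1 (9.37) followed. Col14a1 (7.235) and Col12a1 (5.58), which sit on fibril surfaces, came next. Together the 36 chains took 371 to 738 of every 10000 UMIs in gated fibroblast-like cells and 6.21 to 27.2 in malignant-like cells.

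**Figure D1:**
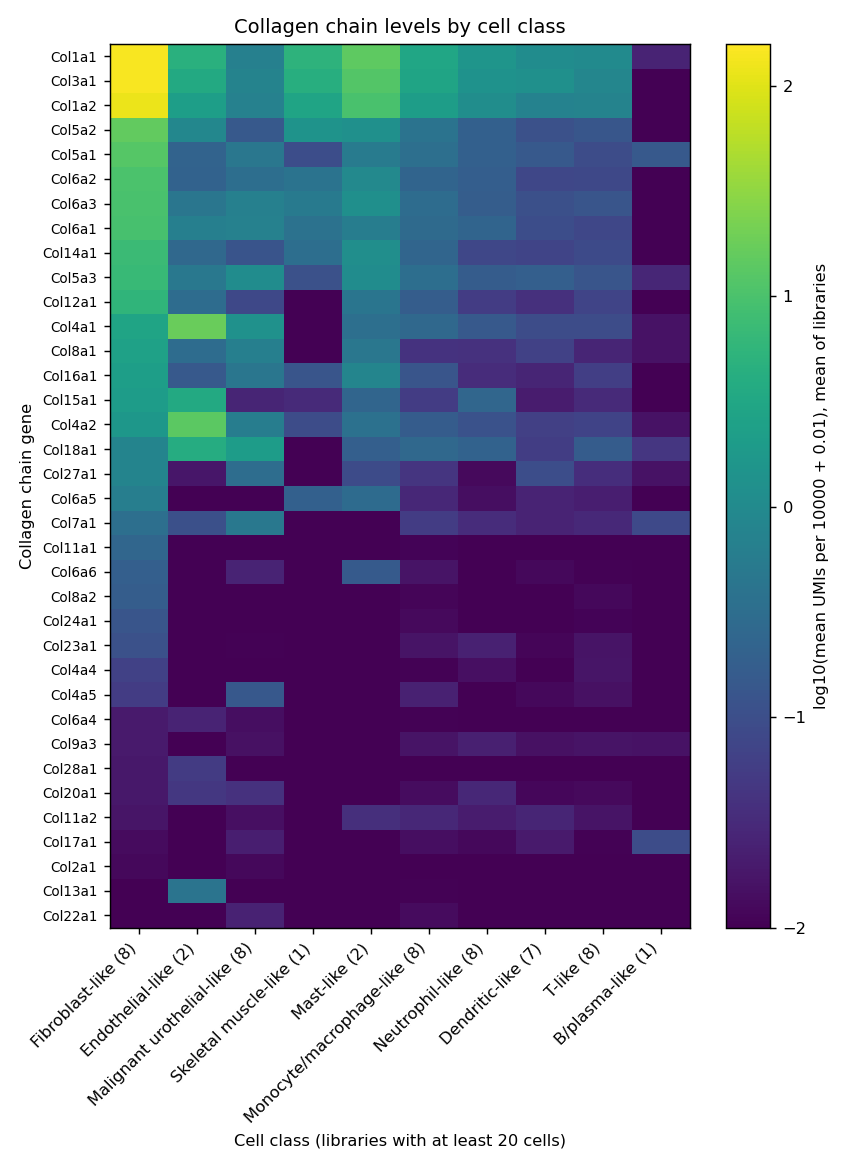
Level of each of the 36 chains (rows) in each named cell class (columns, with the number of libraries that had at least 20 cells), as log10 of mean UMIs per 10000 plus 0.01. Col1a1, Col3a1 and Col1a2 are brightest in the fibroblast-like column, and Col4a1, at 17.3, in the endothelial-like column.

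Basement membrane and multiplexin chains had a different place. Endothelial-like cells, with 34 cells in deleted library 3 and 41 in deleted library 4, held Col4a1 at 11.6 and 22.9 and Col4a2 at 8.95 and 18.4 UMIs per 10000. In the fibroblast-like cells of the same libraries Col4a1 stood at 4.37 and 3.55. Col1a1 stood at 6.99 and 2.205 in endothelial-like cells. Col18a1, the multiplexin whose end fragment is endostatin, stood at 1.83 and 6.04 in endothelial-like cells against 0.696 and 0.865 in fibroblast-like cells. Col13a1, a transmembrane chain, was found at 0.195 and 0.618 in endothelial-like cells and at no more than 0.00151 in the fibroblast-like cells of these libraries. No wild-type library had enough endothelial-like cells to be shown. Col4a1 and Col4a2 lie head to head on mm10 chromosome 8 with 22 bases of overlap at their starts, and whether counting used the strand is not given in the sources used here.

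Malignant-like cells held a lower level of the chains of types I and III than fibroblast-like cells. By the median over libraries their leading chain was Col18a1, from 1.19 to 2.70 with a median of 2.14 over 8 libraries, followed by Col4a1 (0.925 to 2.00, median 1.24) and Col5a3, a minor type V chain (0.666 to 1.72, median 0.954). Col18a1 was seen in 78.4% of malignant-like cells on average. Col7a1, the anchoring fibril chain of epithelia, stood at 0.477 and Col4a5 at 0.131 there, against 0.333 and 0.0466 in fibroblast-like cells. Col1a1 in malignant-like cells was at most 0.308 in wild-type libraries but 3.38 and 1.62 in deleted libraries 3 and 4, where Col3a1 stood at 5.15 and 0.498 and Col1a2 at 4.46 and 0.7525. In library 3 these 3 chains thus stood above Col18a1.

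By the mean over libraries, the leading chains in immune classes other than B/plasma-like cells were again Col1a1, Col3a1 and Col1a2. Their level differed by library, and they did not lead in every library. In T-like cells of libraries 3 and 4, Col1a1 had 340 and 361 UMIs against 9 and 19 of Col4a1. In those of libraries 5 and 6 it had 0 and 5 against 53 and 38. In monocyte/macrophage-like cells Col1a1 stood at 16.7 in library 3 and 6.68 in library 4 and at 0.0360 to 0.944 in the other 6. Col3a1 and Col1a2 there ran from 0 to 16.8 and 0 to 11.8, with medians of 0.363 and 0.354 over 8 libraries, highest in library 3. T-like cells had Col1a1 at 5.32 and 2.27 in libraries 3 and 4 and at most 0.161 elsewhere, and neutrophil-like cells at 8.18 and 2.87 and at most 0.432. Dendritic-like cells had Col3a1 as their first chain by this mean, at 5.04 in library 3, 3.12 in library 7 and at most 0.756 elsewhere. In T-like cells Col3a1 reached 5.33 and Col1a2 4.14, in neutrophil-like cells 7.97 and 5.79, and in dendritic-like cells Col1a1 reached 4.74 and Col1a2 2.78, each in library 3. Mast-like cells, shown for libraries 3 and 4 only, held Col1a1 at 20.2 and 8.94, Col3a1 at 19.1 and 4.46 and Col1a2 at 11.97 and 7.45. Skeletal muscle-like cells, 47 cells of library 3, held Col1a1 at 5.23, Col3a1 at 4.27 and Col1a2 at 2.79. B/plasma-like cells, 37 cells of library 8, held Col5a1 at 0.139, Col17a1 at 0.0865 and Col7a1 at 0.0749. Macrophage-like levels were also set against fibroblast-like levels, over the chains and the fibroblast genes Dcn, Lum, Clec3b, Serpinf1 and Dpt with enough UMIs. The median was 14.6% (8.05% to 24.1%) of the fibroblast-like level in library 3 and 3.68% in library 4. In each other library it was at most 0.6465%. Whether free RNA or doublets carry these UMIs into the immune classes of libraries 3 and 4 was not tested.

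The comparison of hosts used gated cells, defined as cells with a UMI of Col1a1, of Col3a1 and of Dcn, the gene of the fibril-binding proteoglycan decorin. The gate kept 3434 cells: 51, 25, 45 and 56 in wild-type libraries 1, 2, 5 and 6, and 2311, 220, 347 and 379 in deleted libraries 3, 4, 7 and 8. In 6 libraries at least 80.4% of gated cells lay in the fibroblast-like cluster. In library 3 only 39.2% did and 52.4% were macrophage-like, and in library 4 the shares were 30.9% and 60.5%. Gated cells of these libraries outside the fibroblast-like cluster carried the macrophage gene Lyz2 at 32.0 and 30.2 UMIs per 10000. Results are therefore given for all gated cells and for the 1855 gated cells in the fibroblast-like cluster, a set chosen after these shares were seen: 41, 22, 44 and 55 cells of wild-type libraries and 905, 68, 343 and 377 of deleted ones. Because Col1a1 and Col3a1 define the gate, their levels are forced above 0 in every gated cell.

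**Figure D2:**
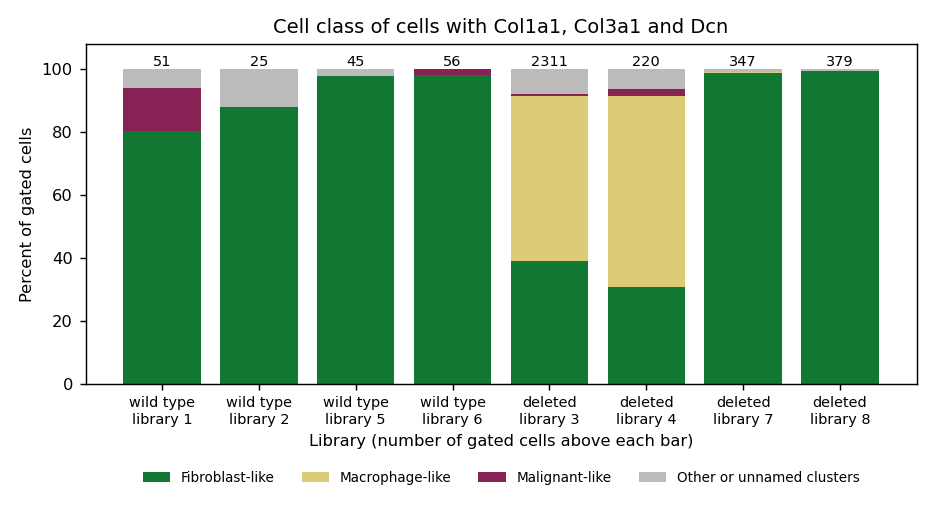
Percent of gated cells (cells with Col1a1, Col3a1 and Dcn) by the class of their cluster, 1 bar per library, with the number of gated cells above it. Fibroblast-like cells fill 80.4% or more of 6 bars, while macrophage-like cells fill 52.4% and 60.5% of the bars of deleted libraries 3 and 4.

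In gated fibroblast-like cells, 2 chains of type VI collagen, Col6a5 and Col6a6, were higher in deleted hosts, and no chain passed the test in the other direction. Col6a5 and Col6a6 encode long alternative chains that can take the place of the α3 chain beside α1 and α2. Of 24 chains tested, 2 were called higher and 0 lower (limma, Benjamini-Hochberg adjusted p below 0.05). Both were at 0 in every wild-type library and passed the filter on low values through the deleted libraries alone, so that they were tested at all depended on the difference, and nothing is read from their count. Of all 9131 genes tested, 0.0548% were called higher and 0.011% lower, 0.0657% in all. In all gated cells none of 23 tested chains passed, where 0.0331% of 9055 genes did, and 9 of the 23 had an unadjusted p below 0.05, as did 1122 of the 9055 genes. The difference is log2 of the mean UMIs per 10000 plus 0.1, deleted minus wild type, a scale that understates changes of low genes.

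Col6a5 was not found in gated fibroblast-like cells of any wild-type library. Its level was 0 in libraries 1, 2, 5 and 6, and 1.02, 1.154, 2.63 and 0.151 UMIs per 10000 in deleted libraries 3, 4, 7 and 8. All deleted libraries lay above all wild-type ones, and library 8 was nearest to them. A limit of 3 UMIs in wild-type libraries 1, 2, 5 and 6 taken singly is 0.0826, 0.1285, 0.1206 and 0.0728 per 10000. The pooled level of library 8, 0.1183, lay below this limit for libraries 2 and 5, so it cannot be told apart from those 2 by counts. In deleted hosts 514 of 1693 cells had a UMI (1813 UMIs), and in wild-type hosts 0 of 41, 22, 44 and 55 cells, which allows shares of up to 7.32%, 13.6%, 6.82% and 5.455% by counting error alone. The deleted mean was 1.24 ± 1.03 (SD, n = 4). Over the group, the 1813 UMIs of 19331730 in deleted cells are 0.938 per 10000. By counting error alone, that is at least 39.3-fold higher than the limit of 3 UMIs in the 1257387 UMIs of the wild-type cells, 0.0239 per 10000. The bound pools cells over libraries and does not cover the spread between them, and library 3 gave 13545503 of the UMIs in deleted cells. Against the same limit, library 8 alone, with 42 UMIs of 3549112, was at least 4.96-fold higher and library 7 at least 97.7-fold, and without any 1 library the bound ran from 26.4 to 47.03. The fitted log2 difference was 3.31 ± 0.53 (SE, limma adjusted p = 0.0280), and it depends on the added 0.1 because 1 group is at 0.

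Col6a6 showed the same order with less spread. It stood at 0 in the 4 wild-type libraries, whose matrices do not list it, and at 0.252, 0.431, 0.411 and 0.338 UMIs per 10000 in deleted libraries 3, 4, 7 and 8. A UMI was found in 275 of 1693 cells of deleted hosts (472 UMIs) and in 0 of 162 cells of wild-type hosts. The deleted mean was 0.358 ± 0.0815 (SD, n = 4). Over the group the level of 0.244 was at least 10.2-fold higher than the same limit (9.38 to 17.8 for single deleted libraries, and 6.88 to 12.2 without any 1 library), and the fitted log2 difference was 2.18 ± 0.26 (SE, limma adjusted p = 0.00139). In all gated cells the log2 differences were 2.74 for Col6a5 and 1.73 for Col6a6 (limma adjusted p = 0.138 and 0.0833), and Col6a5 passed without deleted library 7 or 8 (0.0318 and 0.0461).

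The call of Col6a5 depended more on the setting than that of Col6a6. Both chains were at 0 in every wild-type library, so the spread within groups came from the deleted libraries alone. Leaving out any 1 library other than deleted library 8 ended the call of Col6a5, with limma adjusted p from 0.0652 to 0.169 and log2 differences from 2.82 to 3.31. Without libraries 3 and 4 its adjusted p was 0.229, at a log2 difference of 3.05. The call of Col6a5 was also lost with a pseudocount of 0.5 (1.59, limma adjusted p = 0.161), with no filter (3.31, 0.160), with the mean of the deposited ln values (0.52 on the ln scale, 0.206) and with summed UMIs (3.14, 0.0562), and Col6a6 was called under each of these. Col6a6 kept adjusted p from 0.00410 to 0.0101 in the same leave-one-out fits, and had 0.0251 without libraries 3 and 4. Each fit with libraries left out reapplied the filter, which both chains passed through the deleted libraries alone, so these fits give no separate support. Within libraries 1 to 4 and within libraries 5 to 8, which differ in their barcode set and hold both genotypes, Col6a5 differed by 3.57 and 3.05 and Col6a6 by 2.11 and 2.24.

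Both transcripts were seen mostly in fibroblast-like cells. In library 3, 37.6% of fibroblast-like cells (median 15660 UMIs) had a UMI of Col6a5, against 3.08% of macrophage-like cells (median 2989 UMIs) and 1.78% of T-like cells (median 3536 UMIs). For Col6a6 the shares in library 3 were 18.5%, 0.711% and 0%, and 3 of its 31 malignant-like cells (9.68%, median 3400 UMIs) had a UMI. In library 7, which had the fewest UMIs in all, 36.6% of fibroblast-like cells (median 2882 UMIs) had Col6a5 and 0% of macrophage-like cells did. In the wild-type libraries none of the 49, 32, 53 and 64 fibroblast-like cells had either transcript.

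Col6a4, Col6a5 and Col6a6 lie side by side on mm10 chromosome 9, all on the minus strand, in the order Col6a6 (105687809 to 105828160), Col6a5 (105856078 to 105960643) and Col6a4 (105989454 to 106096783). The gaps are 27917 bases between Col6a6 and Col6a5 and 28810 between Col6a5 and Col6a4. Col6a4 was too scarce to be tested, at 33 UMIs in 1693 deleted cells and 0 in the 162 wild-type cells. The other type VI genes lie elsewhere, and their levels overlapped between hosts. Col6a1 stood at 16.2, 11.1, 8.53 and 6.06 in wild-type libraries 1, 2, 5 and 6, against 9.02, 9.99, 6.81 and 8.78 in deleted libraries 3, 4, 7 and 8. Col6a2 was 14.3, 10.2, 12.2 and 9.55 against 7.96, 8.97, 9.06 and 11.4. Col6a3, the usual partner of these chains in the trimer, was 13.5, 14.1, 9.82 and 6.29 against 8.31, 10.3, 5.61 and 9.14. Their log2 differences were -0.20 ± 0.34, -0.30 ± 0.30 and -0.35 ± 0.35 (SE, limma adjusted p = 0.912, 0.822 and 0.815).

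Because Col6a5 and Col6a6 were called together and Col8a1, described next, lay lower in deleted hosts, the bases just before their starts are shown from RefSeq on GRCm38.p6 (the mm10 build), 5′ to 3′ on the minus strand. The windows are chr9:105960644-105960893 for Col6a5, chr9:105828161-105828335 for Col6a6, shortened to leave out bases that GENCODE annotates as transcribed, and chr16:57754738-57754987 for Col8a1. Capitals mark the GC box GGGCGG or its reverse complement CCGCCC.
Col6a5: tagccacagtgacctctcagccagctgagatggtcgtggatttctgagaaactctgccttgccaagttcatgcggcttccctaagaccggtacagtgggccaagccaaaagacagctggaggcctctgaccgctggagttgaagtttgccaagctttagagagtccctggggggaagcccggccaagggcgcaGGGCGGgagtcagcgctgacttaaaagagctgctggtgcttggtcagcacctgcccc
Col6a6: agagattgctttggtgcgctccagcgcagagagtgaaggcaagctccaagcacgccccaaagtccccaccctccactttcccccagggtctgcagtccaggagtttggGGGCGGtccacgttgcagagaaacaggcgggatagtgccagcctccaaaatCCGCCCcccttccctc
Col8a1: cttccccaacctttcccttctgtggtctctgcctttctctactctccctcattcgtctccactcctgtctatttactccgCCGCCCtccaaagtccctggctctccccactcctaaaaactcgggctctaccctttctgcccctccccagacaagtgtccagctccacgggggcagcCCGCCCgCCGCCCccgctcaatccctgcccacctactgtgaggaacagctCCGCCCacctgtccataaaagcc
The GC box was found 1 time before Col6a5, 2 times before Col6a6 and 4 times before Col8a1. Neither TATAAA nor CCAAT was found on either strand in these windows. Of 32851 promoter windows of 250 bases, 32.7% held the GC box, 12.4% TATAAA and 33.85% CCAAT.

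**Figure D3:**
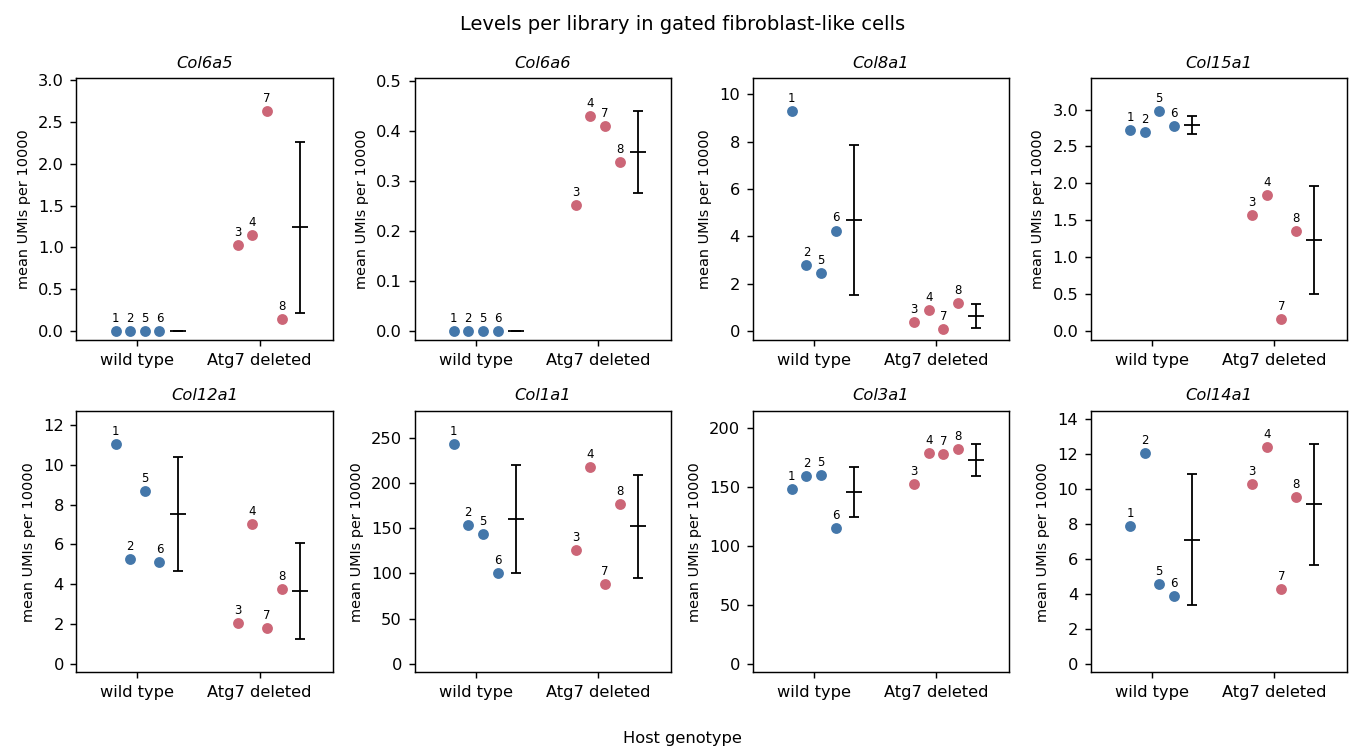
Level of 8 chains in gated fibroblast-like cells (y axis, mean UMIs per 10000), 1 point per library with its number, by host genotype; the black dash and bar are the mean and SD of 4 libraries. Col6a5 and Col6a6 are at 0 in all wild-type libraries, and Col8a1 runs from 2.48 to 9.28 with wild-type hosts and from 0.0717 to 1.20 with deleted hosts.

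Type VIII collagen pointed the other way without passing the test. Col8a1, a short chain of the networks under vessel and corneal endothelium, stood at 9.28, 2.78, 2.48 and 4.25 in wild-type libraries 1, 2, 5 and 6, against 0.390, 0.906, 0.0717 and 1.20 in deleted libraries 3, 4, 7 and 8. The groups did not overlap, and wild-type library 1 was the highest. The means were 4.70 ± 3.15 and 0.642 ± 0.506 (SD, n = 4 each), and the log2 difference was -2.86 ± 0.55 (SE, limma adjusted p = 0.0869). Without deleted library 8 it passed, at -3.25 (limma adjusted p = 0.0394). With a term for the 2 barcode sets, Col8a1 passed at the same difference (limma adjusted p = 0.0326), in a fit that called 0.23% of genes, 0.153% higher and 0.0767% lower. Its partner Col8a2 stood at 0.276 ± 0.224 and 0.0495 ± 0.0456 (SD, n = 4 each), with a log2 difference of -1.10 ± 0.47 (SE, limma adjusted p = 0.536).

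Col15a1 and Col12a1 had lower means in deleted hosts and were not called. Col15a1, a multiplexin at basement membrane borders, stood at 2.73, 2.70, 2.975 and 2.77 with wild-type hosts and 1.57, 1.84, 0.171 and 1.36 with deleted ones, so the groups did not overlap. Its log2 difference was -1.44 ± 0.49 (SE, limma adjusted p = 0.467). Col12a1 was 11.1, 5.28, 8.71 and 5.11 against 2.03, 7.02, 1.785 and 3.78, with overlap, and a log2 difference of -1.16 ± 0.42 (SE, limma adjusted p = 0.476). Over the 24 tested chains, 4 had groups that did not overlap (Col6a5, Col6a6, Col8a1 and Col15a1), where 4.65% of all genes tested did. For Col6a5 and Col6a6 this was fixed by the filter, which they passed through the deleted libraries alone, so nothing is read from this count. In all gated cells with the barcode-set term, Col12a1 (-1.65) and Col15a1 (-1.92) passed too, beside Col6a5, Col6a6 and Col8a1, in a fit that called 1.71% of genes.

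The chains of the main fibrils did not differ beyond the spread of the libraries. Col1a1 stood at 243, 154, 144 and 99.8 in wild-type libraries 1, 2, 5 and 6, against 125, 218, 87.9 and 176 in deleted libraries 3, 4, 7 and 8. Its log2 difference was -0.08 ± 0.54 (SE), with a 95% interval from -1.23 to 1.06, so changes of up to about that size could not be seen. Col1a2 was 218, 112, 109 and 75.8 against 124.5, 192, 61.6 and 120 (-0.05 ± 0.54 SE). Within a library Col1a2 moved with Col1a1: the ratio of their UMIs was 0.766 ± 0.0694 for wild-type hosts and 0.825 ± 0.141 for deleted hosts (SD, n = 4 each). Col3a1 was 148, 159, 160 and 115 against 152, 179, 178 and 182, with a log2 difference of 0.25 ± 0.49 (SE). A UMI of Col1a1 and of Col3a1 was required of every gated cell, so their values here are not independent of the choice of cells. Col5a1 was 17.6, 11.3, 14.2 and 12.1 against 10.2, 16.02, 8.69 and 13.8, and Col5a2 was 18.5, 19.1, 17.9 and 16.3 against 14.85, 18.2, 10.3 and 16.6 (-0.20 ± 0.33 and -0.29 ± 0.32 SE). None of the 8 fibrillar chains tested was called, and limma adjusted p was 0.845 or more for each.

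Col11a1, a fibrillar chain of cartilage and of reactive stroma, fell under the detection filter. It stood at 1.44, 0.0334, 0.361 and 0.258 in wild-type libraries 1, 2, 5 and 6, against 0.000520, 0.0264, 0 and 0.0323 in deleted libraries 3, 4, 7 and 8. UMIs were found in 26 of 162 wild-type and 11 of 1693 deleted cells, and 65 of the 85 wild-type UMIs came from library 1. The difference was not tested.

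**Figure D4:**
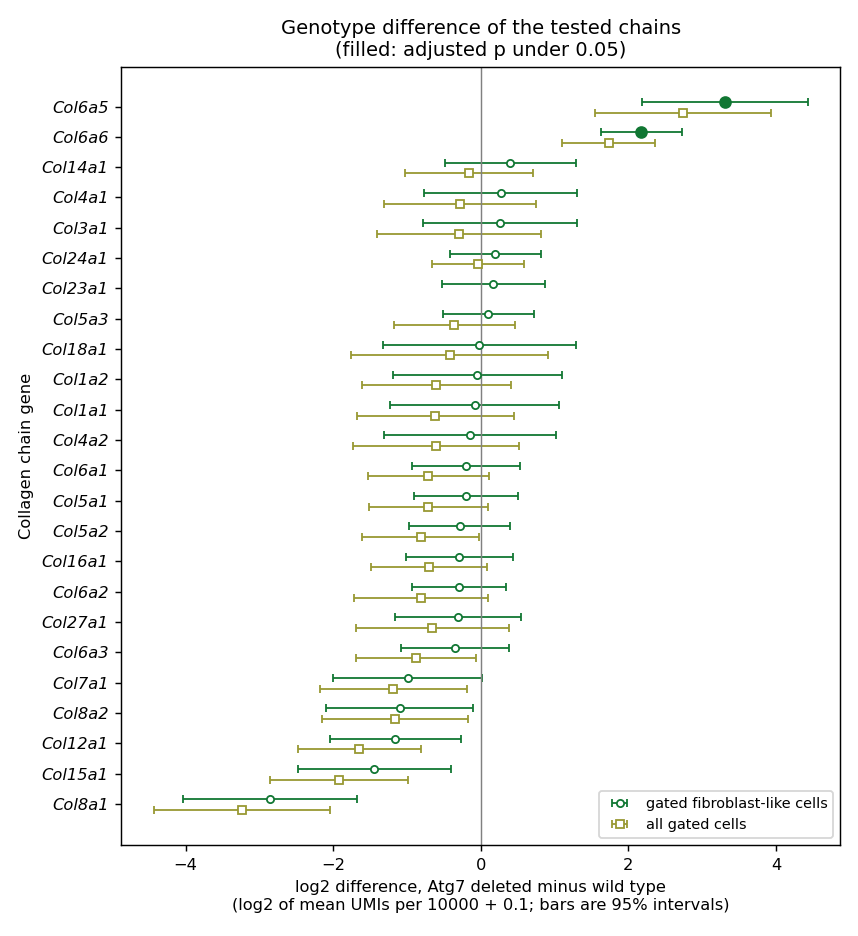
Log2 difference (deleted minus wild type, x axis) of the 24 chains tested in gated fibroblast-like cells (circles) and of the 23 tested in all gated cells (squares), with 95% intervals from limma; filled circles passed at adjusted p below 0.05. Col6a5 and Col6a6 are the filled points, at 3.31 and 2.18, and the squares lie left of the circles for every chain tested in both sets.

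The set of gated cells moved every chain. In all gated cells 21 of 23 tested chains had a negative difference, with a median of -0.66, beside a median of 0.11 over 9055 genes. In gated fibroblast-like cells 16 of 24 were negative, with a median of -0.17, beside 0.07 over 9131 genes, and the median was the same with Col6a5 and Col6a6 at their lower bounds. Col3a1 went from -0.30 to 0.25. Lyz2 and 11 other macrophage markers summed to 1.11 to 8.01 UMIs per 10000 with wild-type hosts and 1.79 to 125 with deleted hosts over all gated cells, and to 1.13 to 5.59 and 1.67 to 19.4 in gated fibroblast-like cells.

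Values of other markers in gated fibroblast-like cells are given beside these differences; their ranges overlapped between hosts, and their part in the differences was not tested. Cells with a UMI of Pi16 or Dpp4, which mark fibroblasts of the fascia and of vessel sheaths, made up 78.05%, 40.9%, 45.45% and 36.4% in wild-type libraries 1, 2, 5 and 6 and 80.55%, 82.35%, 79.0% and 53.85% in deleted libraries 3, 4, 7 and 8 (exact permutation p = 0.0571). Within Pi16 or Dpp4 positive cells, Col6a5 and Col6a6 were at 0 in wild-type libraries 1, 2, 5 and 6, which had only 32, 9, 20 and 20 such cells. They stood at 0.186 to 2.82 and 0.243 to 0.461 in the 4 deleted libraries. Markers of contractile myofibroblasts, 8 genes led by Acta2 and Tagln, summed to 5.74 to 19.7 with wild-type hosts and 1.75 to 7.39 with deleted hosts, and malignant urothelial markers to 0.0536 to 6.06 and 0.0249 to 1.18. Endothelial markers summed to 0.0357 to 0.288 and 0.153 to 0.529, and pericyte and smooth muscle markers to 0.0701 to 0.693 and 0.0365 to 0.544. Cdh5, a defining endothelial gene, was at 0 in all wild-type libraries and in library 7. The median depth of gated fibroblast-like cells was 7820 ± 2922 UMIs for wild-type hosts and 10290 ± 5769 for deleted hosts (SD, n = 4 each, exact permutation p = 0.429).

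Genes that fold, trim, bind and sense collagen showed no call in either gated set without a term for the barcode sets. In gated fibroblast-like cells 0 of 22 tested genes of collagen folding, modification and export passed, with a median difference of -0.14. The nearest was P4ha3, a prolyl 4-hydroxylase subunit, at 1.35 ± 0.201 and 0.755 ± 0.141 (SD, n = 4 each), a log2 difference of -0.77 ± 0.26 (SE, limma adjusted p = 0.467). For processing and cross-linking 0 of 9 passed (median 0.17), for small proteoglycans and fibril organisers 0 of 15 (median 0.11) and for collagen receptors 0 of 6 (median -0.21). Among the organisers, Fmod, a proteoglycan that controls fibril growth, stood at 0.851 ± 0.642 and 0.0708 ± 0.0835 (log2 difference -2.35 ± 0.46 SE, limma adjusted p = 0.0975), while Dpt, dermatopontin, stood at 8.735 ± 3.12 and 19.3 ± 5.45 (1.16 ± 0.38 SE, limma adjusted p = 0.4665). Of the contractile myofibroblast list 0 of 5 passed, with a median of -1.48 and all 5 differences negative. With the barcode-set term, Fmod passed in gated fibroblast-like cells (limma adjusted p = 0.0481). In all gated cells with that term P4ha3 (-1.20) and Serpinh1 (-1.09), a collagen chaperone, passed as lower, as did Lox (-1.02), a cross-linking enzyme, Fmod (-2.40), Tnc (-1.575), Mrc2 (-1.15), a collagen receptor, and the contractile genes Tagln, Myl9 and Tpm1 (limma adjusted p from 0.0267 to 0.0474).

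Splitting gated cells by Pi16 and Dpp4 within each library called no chain. In libraries 3 and 4, 981 of 1157 and 122 of 134 negative gated cells lay outside the fibroblast-like cluster, where 86.1% and 87.5% of gated cells were macrophage-like. Over all gated cells 0.353% of 9055 genes were higher in positive cells and none lower. In gated fibroblast-like cells, in 6 libraries with at least 10 cells of both kinds, 0.0242% of 8250 were higher. Pi16 and Dpp4, which define the split, were not taken out of the genes tested, so these shares can include them. A split by detection also depends on depth, and the depth of the 2 kinds of cell is not given here. Col14a1, a fibril surface chain, had the largest positive difference, 1.48 ± 0.36 over all gated cells and 1.16 ± 0.30 in gated fibroblast-like cells (SE, limma adjusted p = 0.0926 and 0.627). Col12a1, Col15a1 and Col8a1 had negative differences in gated fibroblast-like cells (-1.25, -1.35 and -1.30, limma adjusted p = 0.627 for each). Of the lists, Tnxb (1.89 ± 0.37) and Dpt (1.82 ± 0.37), both fibril organisers, passed over all gated cells (SE, limma adjusted p = 0.0345 and 0.0452), and neither passed in gated fibroblast-like cells (1.66 and 1.27).

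In malignant-like cells no chain differed between hosts beyond the test. Of 17 chains tested, 0 passed, where 0.0925% of 9726 genes did (1 higher and 8 lower), and 3 chains had an unadjusted p below 0.05, as did 1009 of the 9726 genes. Deleted libraries gave only 25 to 55 such cells each. Col5a1 had the smallest adjusted p: it stood at 0.255, 0.158, 0.226 and 0.179 in wild-type libraries 1, 2, 5 and 6, against 1.27, 0.408, 0.470 and 0.625 in deleted libraries 3, 4, 7 and 8, without overlap (log2 difference 1.28 ± 0.32 SE, limma adjusted p = 0.161). Col4a1 did not overlap either, at 0.925 to 1.14 and 1.33 to 2.00 (0.54 ± 0.24 SE, limma adjusted p = 0.455), and 6.49% of genes tested did not overlap. Fibroblast markers in these malignant-like cells summed to 1.02 to 2.38 with wild-type hosts and 0.868 to 8.05 with deleted hosts, with 8.05 in library 3, and their part in these values was not tested.

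The host difference of Col8a1 was tested for a difference between the 2 kinds of cell, and the call depended on the setting. Its difference in gated cells minus that in malignant-like cells was -3.42 ± 0.52 (SE, limma adjusted p = 0.00321), and with gated fibroblast-like cells -3.04 ± 0.49 (limma adjusted p = 0.00506). The call was lost with a pseudocount of 0.5 (-2.47, limma adjusted p = 0.0799), with no filter (-3.42, 0.166) and with ln means (-1.22 on the ln scale, 0.0957), each of which ended the call of Col7a1 too. In malignant-like cells Col8a1 stood at 0.683, 0.591, 0.458 and 0.424 with wild-type hosts and 1.42, 0.575, 0.244 and 0.642 with deleted hosts, with overlap. Col7a1 stood there at 0.332, 0.217, 0.612 and 0.172 with wild-type hosts and 0.707, 0.349, 0.614 and 0.814 with deleted hosts. Col7a1 passed as well, at -1.97 ± 0.42 (SE, limma adjusted p = 0.0413), but not with gated fibroblast-like cells (-1.78 ± 0.44, adjusted p = 0.0970). Of 16 chains tested in both, 2 were called lower and 0 higher, where 0.0747% of 8027 genes were called lower and 0.187% higher (0.262% in all). With gated fibroblast-like cells, 1 was called lower, where 0.0624% of 8015 genes were called lower and 0.137% higher (0.2% in all). Col8a1 was called without any 1 library (limma adjusted p from 0.000312 to 0.0239). Col7a1 lost its call without any 1 library other than deleted library 4, with adjusted p from 0.0573 to 0.193. Without libraries 3 and 4 neither was called, at -2.73 for Col8a1 and -2.31 for Col7a1 (limma adjusted p = 0.0536 for each).

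**Figure D5:**
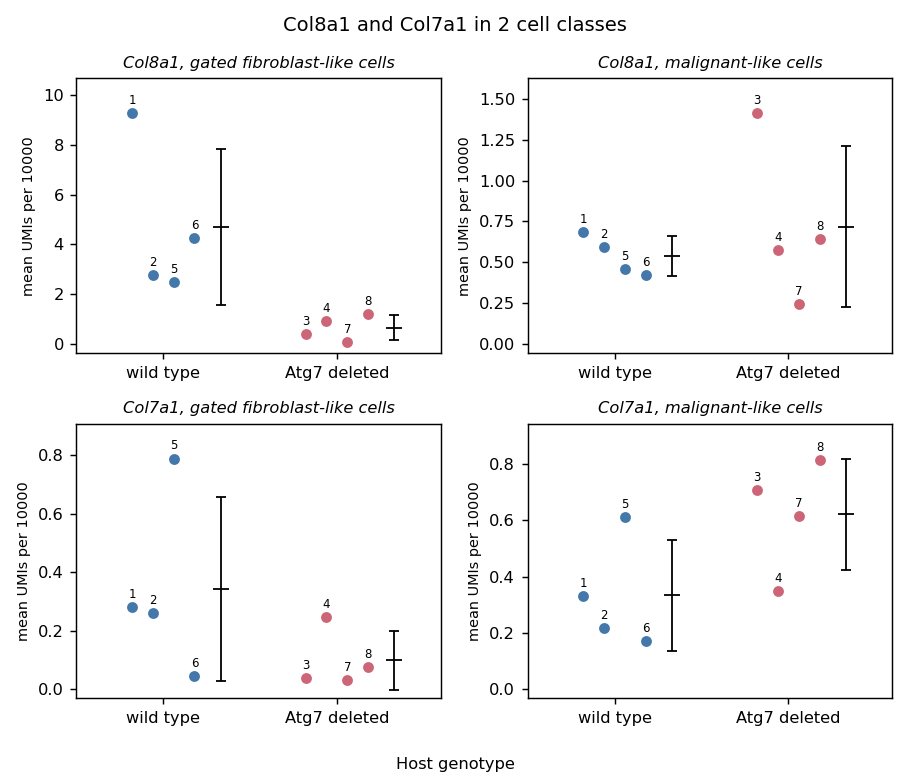
Col8a1 (top) and Col7a1 (bottom) in gated fibroblast-like (left) and malignant-like cells (right), as mean UMIs per 10000 per library (numbered points) by host genotype, with mean and SD of 4 libraries in black. Col8a1 lies apart by genotype on the left, with no overlap, and overlaps on the right.

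The other chains showed no call. In gated fibroblast-like cells Col14a1 stood at 7.09 ± 3.75 for wild-type hosts and 9.12 ± 3.47 for deleted hosts (SD, n = 4 each), with a log2 difference of 0.40 ± 0.42 (SE, limma adjusted p = 0.8293). Col4a1 and Col4a2, the basement membrane pair, stood at 2.53 ± 2.07 and 1.59 ± 1.18 for wild-type hosts, against 2.83 ± 1.39 and 1.49 ± 1.00 for deleted hosts. Col7a1 was 0.281, 0.259, 0.789 and 0.0439 in wild-type libraries 1, 2, 5 and 6 against 0.0394, 0.248, 0.0306 and 0.0760 in deleted libraries 3, 4, 7 and 8, with overlap (-0.99 ± 0.47 SE, limma adjusted p = 0.594). Col16a1, Col18a1, Col23a1, Col24a1, Col27a1 and Col5a3 had log2 differences from -0.31 (Col27a1) to 0.20 (Col24a1). The 12 chains under the filter there were Col2a1, Col4a4, Col4a5, Col6a4, Col9a3, Col11a1, Col11a2, Col13a1, Col17a1, Col20a1, Col22a1 and Col28a1. Of these, Col28a1 had 27 UMIs in 22 of 1693 deleted cells and none in 162 wild-type cells, too few UMIs to read a difference from. Col22a1 was at 0 in every library.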

How the data were processed

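Per the submitters' processing notes, the 8 libraries were made with 5′ single-cell chemistry. By the same notes, the authors made the deposited matrices with Cell Ranger 2.1 and Seurat 3.0 on mm10. Cell barcodes starting AAACCC were found only in libraries 1 to 4, and those starting AAACCT only in libraries 5 to 8. Whether the 2 barcode sets share 1 chemistry was not tested. The deposited values are the natural log of 1 plus UMIs per 10000 UMIs of a cell. UMI counts were recovered from these steps and came out whole within 0.01 UMI in 100% of the values checked. No doublet caller was run. Cells were clustered without collagen genes (scanpy 1.11.5, 2000 variable genes, 30 components, resolution 1). Per library, log2 of mean UMIs per 10000 plus 0.1 was tested with limma 3.58.1 (R 4.3.3), with Benjamini-Hochberg adjustment over all genes found in 5% of cells or more in a number of libraries no lower than the size of the smaller group, using libraries with at least 20 cells (10 for the Pi16 and Dpp4 split). On simulated data for gated fibroblast-like cells (9131 genes), 0% of 2-fold and 49% of 4-fold changes were recovered. For gated cells (9055 genes) the shares were 1% and 32%. The simulation added counting noise to a fitted spread that already holds it, so these shares may understate recovery.

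Called chains, the 8 highest in gated cells and the 3 highest in each class are given by library or by range, and of the lists only called genes were to be named, so P4ha3, Fmod and unadjusted examples were chosen after their values were seen. The members and gene lists were chosen with earlier results of these data known. No label says that libraries came from separate animals, so p-values may measure only the spread between samples. The limits of levels and of cell shares cover counting error only. The intervals of log2 differences come from limma and reflect the spread between libraries. GENCODE M21 gave positions for 36 of 36 chains, and the RefSeq promoter table held 29 of them. Alternatives were the pseudocount, filters, scaling, gates, clustering, depth, barcode sets and libraries left out.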

Additional observations from a re-analysis of the deposited data

Results flagged for a closer look

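In gated fibroblast-like cells of deleted hosts, Col3a1 in library 3 was 152.3 UMIs per 10000, apart from the other 3 libraries, which lay between 178 and 182. Its gap to the nearest of them was 0.862 of the group's range, above Dixon's 95% limit for 4 samples. Of 38 groups of 4 examined this was the 1 sample set apart, and chance alone sets apart about 1 in 20 groups. Col3a1 was also used to choose these cells.

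The difference between hosts differed between gated and malignant-like cells for Col8a1, at -3.42 (limma adjusted p = 0.00321), and for Col7a1, at -1.97 (limma adjusted p = 0.0413), by the test of the difference itself. Over the fits that leave out 1 library, adjusted p ran from 0.000312 to 0.0239 for Col8a1 and from 0.0119 to 0.193 for Col7a1. Neither was called with a pseudocount of 0.5, with no filter, with ln means or without libraries 3 and 4.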

How the results depend on the processing

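No paired analysis was possible because library numbers do not repeat across genotypes. All gated cells called 3 genes and 0 chains. Other settings called 14 genes (no filter), 0 (mean ln values, gate of Dcn and Lum, cells without Pi16 or Dpp4, or at least 50 gated cells), 1 (thinned to 2000 UMIs) and 9 with 1 chain (summed UMIs). They called 155 with 5 chains (barcode-set term), 8 with 2 (fibroblast-like clusters without the gate), 6 with 2 (gated cells in those clusters) and 7 with 1 (without libraries 3 and 4). Leaving out 1 library gave 1 to 10 genes and 0 to 2 chains. Gated fibroblast-like cells called 6 genes and 2 chains, against 31 genes and 1 chain with no filter, 3 and 1 with ln means, 21 genes with the barcode-set term, and 1 chain with a pseudocount of 0.5, with summed UMIs or without libraries 3 and 4. The chain lost in each of these was Col6a5. Leaving out 1 library gave 3 to 9 genes and 1 to 3 chains.

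Malignant-like cells called 9 genes, against 2 (pseudocount 0.5), 348 (no filter), 49 (ln means), 40 (summed UMIs), 51 (barcode-set term), 40 (resolution 0.5) and 0 to 16 (1 library left out, 0 chains throughout). The difference between gated and malignant-like cells called 21 genes and 2 chains, against 4 and 0 (pseudocount 0.5), 4 and 0 (no filter), 2 and 0 (ln means), 62 genes (summed UMIs), 60 genes (barcode-set term), 1 chain (gated fibroblast-like cells), 3 and 0 (without libraries 3 and 4) and 5 to 45 genes with 1 to 2 chains (1 library left out). The Pi16 or Dpp4 split called 32 genes, against 53 (pseudocount 0.5), 1 (no filter), 113 with 1 chain, Col14a1 (ln means), 50 (summed UMIs), 2 (gated fibroblast-like cells or without libraries 3 and 4) and 5 to 30 (1 library left out, 0 chains throughout).

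Uncalled differences near 0 changed sign. In all gated cells, Col3a1 became 0.12 (summed UMIs), 0.47 (fibroblast-like clusters without the gate), 0.25 (gated cells in those clusters, and gated cells without other markers) and 0.43 (without libraries 3 and 4). Col1a1 became 0.0374 and 0.00531, and Col1a2 0.108 and 0.0174, in fibroblast-like clusters without the gate and in cells without other markers, where Col6a1 became 0.17. In gated fibroblast-like cells Col1a1 became 0.0299 and Col1a2 0.0678 with ln means. Leaving out 1 library gave -0.29 to 0.15 for Col1a1 (0.14 without library 1, 0.15 without 7), -0.29 to 0.25 for Col1a2 (0.24 and 0.25) and -0.43 to 0.0407 for Col6a1 (highest without library 1). In malignant-like cells Col8a1 became -0.17 (summed UMIs, and resolution 0.5), and -0.32 without libraries 3 and 4, and ran from -0.18 (without library 3) to 0.53 with 1 library left out. The cause was not tested. Of the values for single chains, 654 stayed the same. For tests this means the same direction and side of the threshold, and for class levels a move smaller than the SD. Of the rest, 28 lost a call, 17 gained one, 21 changed sign and 3 class levels moved further. Of the counts of called genes and chains, taken with the summed chain level of fibroblast-like cells, 92 moved and 82 stayed the same. Wild-type libraries gave 22 to 55 gated fibroblast-like cells, which limits what can be seen.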

Other observations

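Col15a1 was found at low levels in neutrophil-like cells. Levels per 10000 UMIs were 0, 0.0475, 0.103 and 0.285 for wild-type libraries 1, 2, 5 and 6, against 0.265, 0.598, 0.370 and 0.166 for deleted libraries 3, 4, 7 and 8. In macrophage-like cells Col15a1 ran from 0 to 0.1855 and in T-like cells from 0 to 0.0705, below the neutrophil-like level in each library other than library 1. The share of cells with a UMI of Col15a1 did not keep this order. In library 3 it was 2.92% of neutrophil-like cells (median 1154 UMIs), 4.17% of macrophage-like cells (median 2989) and 4.14% of T-like cells (median 3536), and in library 2 it was 0.413% of neutrophil-like and 0.484% of macrophage-like cells. Library 1 had 0 of 65 neutrophil-like and 3 of 680 macrophage-like cells, and library 4 had 10.3% of neutrophil-like, 3.81% of macrophage-like and 4.78% of T-like cells. These are values with no test, and no order is read from them.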
